A study of Homo sapiens with 4 samples.

Results

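The 38 genes described here are those of glycolysis and of the cellular response to low oxygen, taken by name from a table of 19912 genes. They comprise 2 glucose transporters, 8 enzymes of upper glycolysis, 2 enzymes that set the level of the regulator fructose 2,6-bisphosphate, 7 enzymes of lower glycolysis, 5 genes of lactate and pyruvate handling, 5 genes of oxygen sensing and 9 genes that hypoxia-inducible factor (HIF) is known to induce. The rule uses gene names only, and not their values, although the genes were chosen with earlier results of these data known. All 38 were found in the table. After the low-count filter 37 were tested, and carbonic anhydrase CA9, at 1, 1, 0 and 2 counts in the 4 libraries, was not.

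RNA was sequenced from endothelial cells that H1 human embryonic stem cells had been differentiated into and that were positive for the GATA2/eGFP reporter, in which green fluorescent protein marks cells that use the GATA2 gene. All 4 libraries therefore carried the reporter. The 2 WT libraries came from cells with intact GFI1, a transcriptional repressor that acts during the endothelial-to-haematopoietic transition. The 2 GFI1-KO libraries (genotype GFI1KO) came from cells in which GFI1 was knocked out. The labels give no clone, day of differentiation or drug treatment, and do not say whether a genotype's 2 libraries came from different cultures. P-values therefore cover only how far these libraries differed, which may be technical.

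Glycolysis splits glucose into pyruvate and yields ATP without oxygen, and lactate dehydrogenase turns pyruvate into lactate so that the path can go on. Endothelial cells are known to rely on it for most of their ATP. When oxygen is short, the prolyl hydroxylases encoded by EGLN1 and EGLN3 no longer mark the HIF alpha subunits for destruction through VHL, and stabilised HIF switches on glucose transporters, glycolytic enzymes and its own hydroxylases.

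The libraries differed in depth. Totals were 2239214 to 2417410 counts in 3 of them and 146584 in GFI1-KO replicate 1. The values below are CPM (counts scaled to a TMM-adjusted library total). A single count was worth 6.62 CPM in GFI1-KO replicate 1 and at most 0.447 CPM in each of the others, so a floor of 3 counts stood at 19.9 CPM there. GFI1 itself stood at 58.5 and 58.3 CPM in WT against 19.9 and 19.6 CPM in GFI1-KO, on 3 and 44 counts (log2 fold change -1.57, SE 0.31, edgeR adjusted p = 0.0215). The summed level of 10 pan-endothelial markers was 6402 and 6614 CPM in WT, against 7777 and 9210 CPM in GFI1-KO. KDR was the largest part of it, at 2995 and 3285 against 3703 and 4970 CPM. Of the 10, 9 had a log2 fold change above 0, while PECAM1 was lower, at 443 and 388 against 344 and 324 CPM. EMCN was the only 1 of the 10 called. It was higher, at 11.6 and 6.71 against 72.9 and 41.4 CPM, on 26, 16, 11 and 93 counts (log2 fold change 2.38, edgeR adjusted p = 0.00959). For 14 haematopoietic markers the sum was 47.8 and 73.9 CPM against 13.2 and 22.7 CPM, with PTPRC, HBE1, HBG1 and HBZ at 0 in every library. The 13.2 CPM rest on 2 counts, below the floor, and within the list PF4 (3, 0, 1 and 12 counts) and LYZ (2, 4, 1 and 8 counts) did not follow the sum. For 9 pluripotency markers the sum was 1074 and 1166 CPM against 848 and 874 CPM, with NANOG and PRDM14 at 0. Most of it was LIN28A (603 and 635 against 523 and 462 CPM) and DNMT3B (327 and 387 against 245 and 304 CPM). POU5F1 had 4, 13, 0 and 5 counts and SOX2 had 0, 0, 0 and 1. The summed level of 12 mesenchymal markers overlapped, at 4428 and 3624 CPM against 3398 and 3814 CPM. The sum of 8 liver and endoderm markers was 114 and 58.7 CPM against 146 and 180 CPM, with AFP and ALB at 0 in every library. Nearly all of it was SOX17 (109 and 55.4 against 146 and 177 CPM), the only 1 of the 8 past the low-count filter. This sum was therefore not read as a level of liver or endoderm cells. The sum of 8 neural and epithelial markers overlapped, at 656 and 452 CPM against 225 and 543 CPM, with SOX1 at 0. GATA2, the gene behind the sort, stood at 293 and 252 CPM against 139 and 124 CPM (edgeR adjusted p = 0.0376). The part of these shifts in the results below was not tested. In bulk RNA fewer cells of a type and less RNA per cell cannot be told apart.

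The stretches before the transcription start are shown for EGLN1, the only one of these genes past the threshold, and for SLC2A1, LDHA and ENO1, whose GFI1-KO levels lay below WT. Each is the 250 bases before a RefSeq start (GRCh38.p14), read towards the gene. Capitals mark ACGTG or GCGTG on either strand (CACGT or CACGC where the match is on the other strand), the core letters of a hypoxia response element. They stand for chr1:231422288-231422537 (minus strand), chr1:42958869-42959118 (minus strand), chr11:18394313-18394562 (plus strand) and chr1:8878687-8878936 (minus strand), in that order.
EGLN1: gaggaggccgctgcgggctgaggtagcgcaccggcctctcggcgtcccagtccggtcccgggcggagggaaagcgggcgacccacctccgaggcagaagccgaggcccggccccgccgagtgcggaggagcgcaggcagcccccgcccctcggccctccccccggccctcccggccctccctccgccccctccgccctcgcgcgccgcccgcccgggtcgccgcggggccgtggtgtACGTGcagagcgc
SLC2A1: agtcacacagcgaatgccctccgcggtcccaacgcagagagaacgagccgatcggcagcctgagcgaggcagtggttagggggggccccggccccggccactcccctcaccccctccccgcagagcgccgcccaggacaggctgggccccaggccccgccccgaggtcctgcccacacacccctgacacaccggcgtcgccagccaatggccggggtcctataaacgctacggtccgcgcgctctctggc
LDHA: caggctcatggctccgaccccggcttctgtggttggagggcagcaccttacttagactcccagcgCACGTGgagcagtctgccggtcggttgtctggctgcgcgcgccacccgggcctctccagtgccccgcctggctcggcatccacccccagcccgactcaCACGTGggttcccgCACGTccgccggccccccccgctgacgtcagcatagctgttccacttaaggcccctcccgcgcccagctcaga
ENO1: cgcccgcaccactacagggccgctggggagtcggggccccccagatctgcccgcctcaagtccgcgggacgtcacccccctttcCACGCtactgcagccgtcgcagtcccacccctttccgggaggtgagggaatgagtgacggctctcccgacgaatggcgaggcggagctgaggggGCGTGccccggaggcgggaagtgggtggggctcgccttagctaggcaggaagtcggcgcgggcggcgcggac

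EGLN1 held 1 match, whose first base lay 13 bases before the start. LDHA has 2 starts in the promoter table. The window shown, of the upstream start, held 5 matches, among them the palindrome CACGTG, which is counted on both strands, and the window of the other start held 1. ENO1 held 2 and SLC2A1 held 0 in this window. Of 33 members with an entry, which had 63 starts, 37 windows (58.7%) held a match, against 15172 of 35116 windows (43.2%) of the 27305 genes in the RefSeq promoter table. Windows of a gene with several starts can overlap, and part of the member list was named for its known response to HIF. No test of these percentages was run. These matches are letters in a window, not measured binding. SLC2A3, SLC16A1, VHL, BNIP3L and NDRG1 had no entry.

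Of the tested members, 1 passed the test between genotypes. EGLN1 rose and no member fell at an edgeR adjusted p under 0.05, and 36 of the 37 tested members did not pass. Over all 11380 genes tested, 109 (0.958%) were called, 88 of them (0.773%) higher and 21 (0.185%) lower. At an unadjusted p under 0.05, 2 members were higher and 6 lower, where 9.35% of all genes passed (5.81% higher and 3.54% lower). DESeq2 called 0 of the 34 members to which it gave an adjusted p, and limma-voom called 1, again EGLN1. The median log2 fold change of the tested members was -0.13, beside -0.02 over all genes, and 24 of 37 lay below 0, beside 52.5% of all genes.

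**Figure D1:**
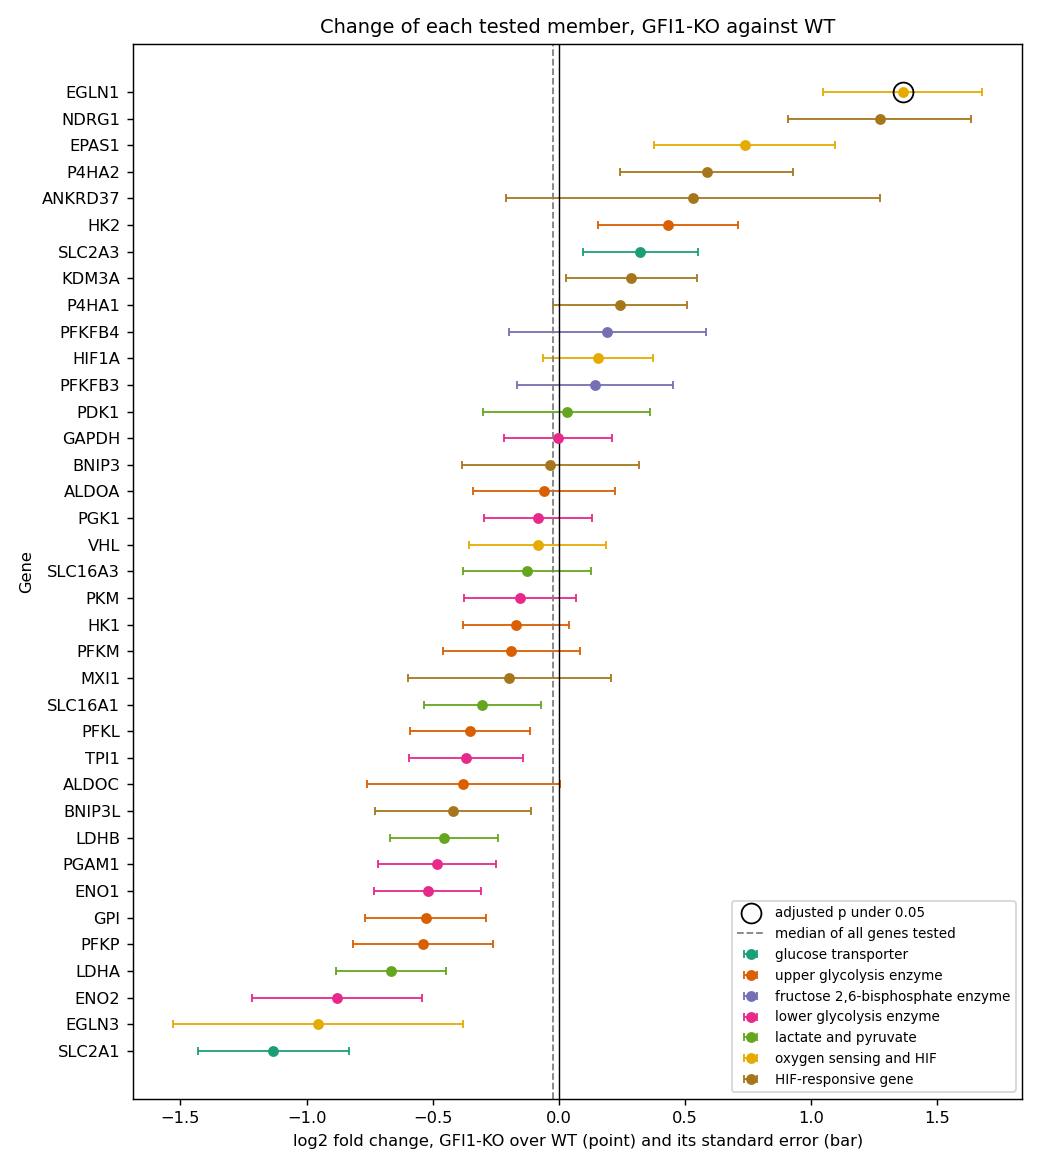
Log2 fold change (GFI1-KO over WT, horizontal axis) of each tested member, ordered by size and coloured by role, with bars of 1 SE. EGLN1 at 1.36 is the one gene past the adjusted threshold, and all 7 lower glycolysis enzymes lie at or left of 0, from -0.88 for ENO2 to -0.00 for GAPDH, whose sign turned with RLE size factors and with library size alone.

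The 2 glucose transporters had fitted differences of opposite sign, and neither passed. SLC2A3, which encodes the high-affinity transporter GLUT3, was at 647 and 858 CPM in WT, against 782 and 1066 CPM in GFI1-KO, and the genotypes overlapped (log2 fold change 0.32, SE 0.23, edgeR adjusted p = 0.796). Its transcript is close in sequence to that of SLC2A14, listed at 21, 35, 0 and 28 counts, so reads could be shared between them. SLC2A1, which encodes the widely expressed transporter GLUT1 (ENSG00000117394, chromosome 1, 42925375 to 42959176, minus strand, GRCh38), was at 81.7 and 125 CPM in WT, against 33.1 and 50.3 CPM in GFI1-KO, on 183, 299, 5 and 113 counts.

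Both GFI1-KO libraries of SLC2A1 lay below both WT libraries, at 41.7 ± 12.1 CPM against 104 ± 30.9 CPM (SD, n = 2 each). The log2 fold change was -1.13 (SE 0.30) and missed the threshold at an edgeR adjusted p of 0.0935. Pooled counts gave a GFI1-KO to WT ratio of 0.472 (exact 95% counting interval 0.383 to 0.578). Alternatives went both ways. With edgeR the adjusted p was 0.00909 without the low-count filter and 0.0146 without GFI1-KO replicate 1 (log2 fold change -1.04). It was 0.0986 without GFI1-KO replicate 2 (-1.64) and 0.0821 when WT replicate 1 was left out (-1.43). It was 0.955 when WT replicate 2 was left out (-0.81), and DESeq2 gave 0.619. Each fit without a library leaves 1 library in that genotype, which is assumed to vary like the 2 of the other, so such adjusted p-values, here and below, are weak support in either direction.

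Of the counts of the 2 transporters, SLC2A1 took 11.2% (exact 95% interval 9.73 to 12.9%) and 12.8% (11.4 to 14.2%) in the WT libraries. In the GFI1-KO libraries it took 4.07% (1.33 to 9.23%) and 4.50% (3.73 to 5.39%). The GFI1-KO intervals lay below the WT intervals. Per kilobase of annotated exon, SLC2A3 made up 85.9% and 84.0% of the pair in WT, against 94.8% and 94.2% in GFI1-KO. With 2 libraries against 2 an exact two-sided permutation test cannot go below p = 0.33, and no test of these shares was run.

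**Figure D2:**
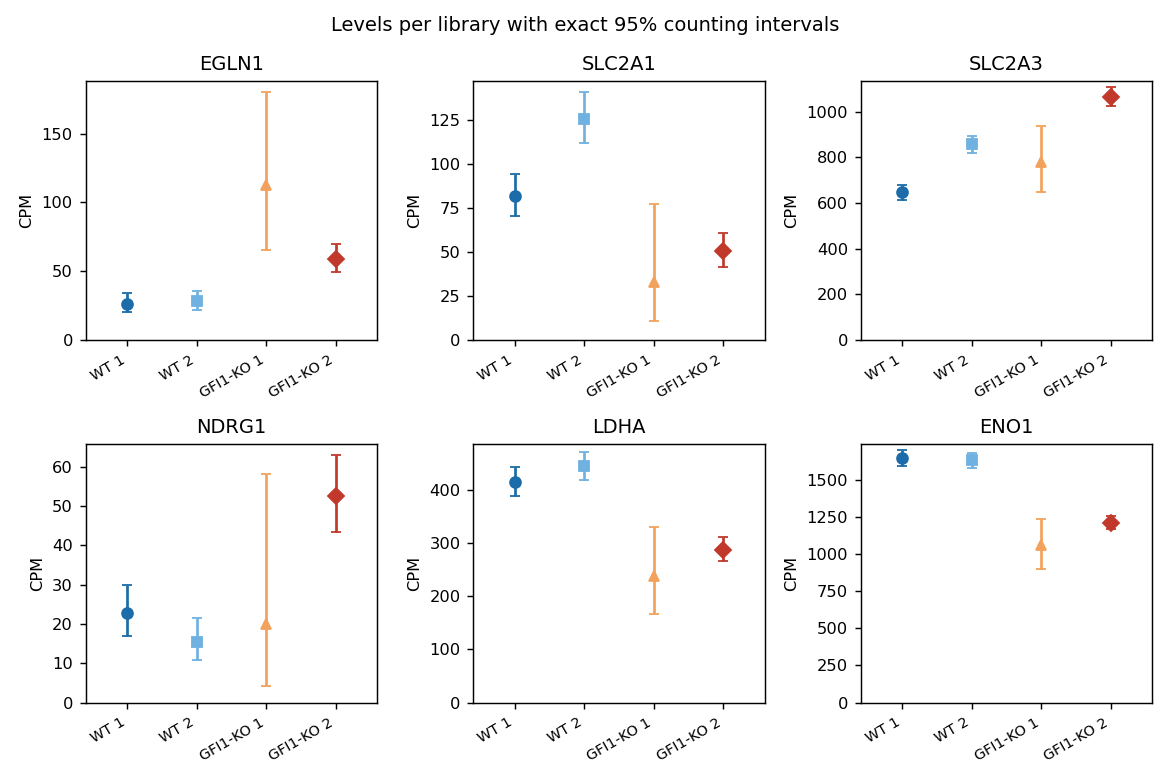
Level (CPM, vertical axis, from 0) of members in each of the 4 libraries, with exact 95% counting intervals. EGLN1 is higher and SLC2A1, LDHA and ENO1 are lower in both GFI1-KO libraries than in both WT libraries. NDRG1 is highest in GFI1-KO replicate 2, and its interval in GFI1-KO replicate 1, on 3 counts, covers that level.

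The 15 enzymes of the main path, from hexokinase to pyruvate kinase, mostly had lower values in GFI1-KO, although no single enzyme passed the threshold. Of them 14 had a log2 fold change below 0, with a median of -0.35, and 0 were called by edgeR, by DESeq2 or by limma-voom. With DESeq2 the median was -0.20. At an unadjusted edgeR p under 0.05, 3 were lower and 0 higher, where 3.54% of all genes were lower and 5.81% higher. At an unadjusted DESeq2 p under 0.05, 1 was lower, where 0.756% of all genes were. The GFI1-KO libraries lay below both WT libraries for 8, where 22.7% of all genes did, and above both for 1, HK2, where 18.6% of all genes did. Without GFI1-KO replicate 2, 10 of the 15 lay below 0, with the median over all genes then at -0.10. Leaving out any other library left 12, and the median was -0.22 without WT replicate 1. PFKM, ALDOA, ALDOC, GAPDH, PGK1 and PKM are among the 14 and turned sign in at least 1 alternative.

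Together these 15 enzymes took 0.831% of the counts (exact 95% interval 0.819 to 0.843%) in WT replicate 1 and 0.823% (0.812 to 0.835%) in WT replicate 2. They took 0.700% (0.658 to 0.744%) and 0.717% (0.706 to 0.728%) in GFI1-KO. The WT libraries were within 0.01 percentage points of each other, and both GFI1-KO libraries lay below them, at a ratio of mean shares of 0.857. GAPDH, the most abundant of them, did not share in this. Without it the shares were 0.567%, 0.568%, 0.423% and 0.474% in the same order.

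**Figure D3:**
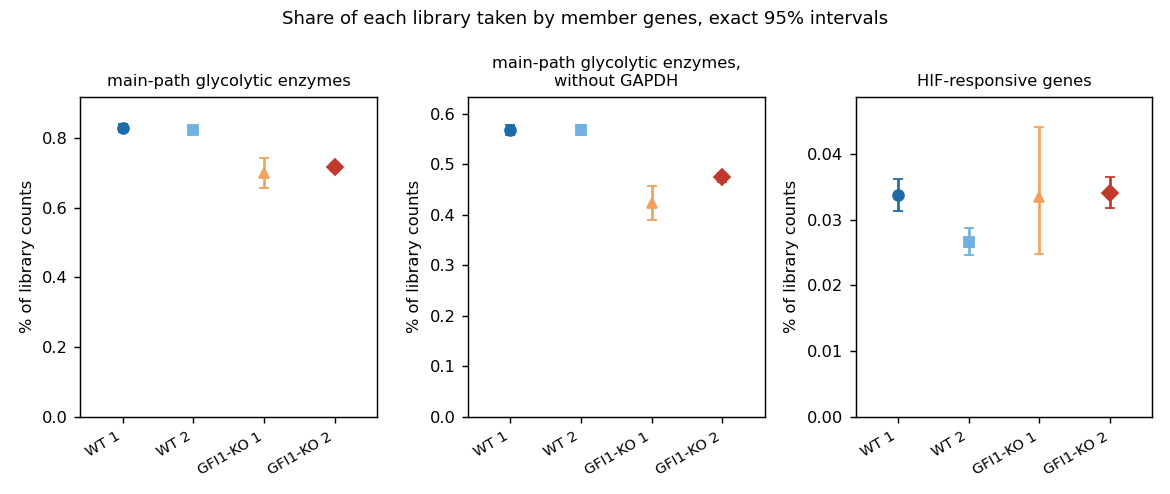
Share of all counts of a library (%, vertical axis, from 0) taken by the main-path enzymes, by the same without GAPDH, and by the 9 HIF-responsive genes, with exact 95% intervals. Both enzyme shares are lower in the 2 GFI1-KO libraries, and the HIF-responsive share, 0.0267 to 0.0341%, overlaps between genotypes.

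Among the upper enzymes, which spend ATP to prepare glucose for splitting, hexokinase 1 (HK1) was at 513 and 491 CPM in WT, against 470 and 430 CPM in GFI1-KO (log2 fold change -0.17, SE 0.21, edgeR adjusted p = 0.914). HK2, the hexokinase that insulin and HIF are known to induce, was at 37.5 and 50.4 CPM in WT, against 66.2 and 57.9 CPM in GFI1-KO (0.43, SE 0.28, edgeR adjusted p = 0.744). It was the only main-path enzyme with both GFI1-KO libraries above WT, and its share of the hexokinase counts was 6.81% and 9.30% in WT, against 12.3% and 11.9% in GFI1-KO. The interval of GFI1-KO replicate 1, 6.08 to 21.5%, on 10 counts of HK2, covered both WT values.

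GPI, which interconverts glucose 6-phosphate and fructose 6-phosphate, was at 162 and 176 CPM in WT, against 132 and 112 CPM in GFI1-KO, without overlap (log2 fold change -0.53, SE 0.24, edgeR adjusted p = 0.502). Phosphofructokinase, which commits sugar to glycolysis, has 3 genes. The platelet form PFKP was the most abundant of these per kilobase in every library. It was at 267 and 292 CPM in WT, against 92.7 and 237 CPM in GFI1-KO (-0.54, SE 0.28, edgeR adjusted p = 0.598). This gap rested on GFI1-KO replicate 1, which had 14 counts of PFKP: the log2 fold change was -0.24 without that library and -1.58 (edgeR adjusted p = 0.00458) without GFI1-KO replicate 2.

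The liver form PFKL was at 172 and 153 CPM in WT, against 106 and 135 CPM in GFI1-KO (edgeR adjusted p = 0.771), again without overlap. The muscle form PFKM, at 71.0 and 56.2 against 66.2 and 53.4 CPM, overlapped (edgeR adjusted p = 0.937). The aldolases, which split the 6-carbon sugar, were low. ALDOA was at 53.6 and 59.2 CPM in WT, against 26.5 and 60.1 CPM in GFI1-KO, where the first value rests on 4 counts. Its exons share 1657 of 3916 bases with AC093512.2, an annotated gene on the same strand listed at 0 to 5 counts, so reads there could have been dropped from ALDOA and its level may be understated.

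ALDOC, the brain-type aldolase, was at 36.6 and 31.1 CPM in WT, against 53.0 and 21.4 CPM in GFI1-KO, where the first value rests on 8 counts. Its mean CPM was higher in GFI1-KO while its fitted log2 fold change was -0.38 (SE 0.38, edgeR adjusted p = 0.885), so no direction was read. The kinase/phosphatases PFKFB3 and PFKFB4, which make and remove fructose 2,6-bisphosphate, overlapped between genotypes. Their GFI1-KO values in replicate 1 rest on 5 and 4 counts.

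Lower glycolysis is where ATP is gained. ENO1, the enolase that forms phosphoenolpyruvate (ENSG00000074800, chromosome 1, 8861000 to 8879250, minus strand, GRCh38), was at 1649 and 1632 CPM in WT, against 1059.9 and 1212 CPM in GFI1-KO, on 3693, 3889, 160 and 2724 counts. Both GFI1-KO libraries lay well below WT, at 1136 ± 108 CPM against 1641 ± 12.1 CPM (SD, n = 2 each). The log2 fold change was -0.52 (SE 0.21) and did not pass (edgeR adjusted p = 0.396). Pooled counts gave a GFI1-KO to WT ratio of 0.733 (exact 95% counting interval 0.702 to 0.766).

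The neuronal enolase ENO2 was at 54.0 and 37.8 CPM in WT, against 33.1 and 23.6 CPM in GFI1-KO (log2 fold change -0.88, SE 0.34, edgeR adjusted p = 0.336), without overlap but on 5 counts in GFI1-KO replicate 1. It made up 1.91 to 3.17% of the enolase counts in all 4 libraries. PGAM1, the phosphoglycerate mutase, was at 409 and 411 CPM in WT, against 205 and 341 CPM in GFI1-KO (-0.48, SE 0.24, edgeR adjusted p = 0.563). TPI1, the triose phosphate isomerase, was at 468 and 411 CPM in WT, against 265 and 385 CPM in GFI1-KO (-0.37, SE 0.23, edgeR adjusted p = 0.725). For both enzymes the GFI1-KO libraries differed more from each other than the WT libraries did, and replicate 1 was the lower.

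GAPDH, which makes the first energy-rich intermediate of this stretch, was at 2632 and 2589 CPM in WT, against 2689 and 2524 CPM in GFI1-KO. The genotypes overlapped and the fitted difference was -0.00 on the log2 scale (SE 0.21). The annotation holds 62 GAPDH pseudogenes, 0 of which are in the table, so their effect on this level is unknown. PGK1, the phosphoglycerate kinase, was at 438 and 478 CPM in WT, against 477 and 404 CPM in GFI1-KO. PKM, the pyruvate kinase of most tissues, was at 1343 and 1483 CPM in WT, against 1053 and 1449 CPM in GFI1-KO. Both overlapped between genotypes.

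Per kilobase of annotated exon, GAPDH led in WT at 876 ± 10.3 CPM per kb, followed by ENO1 at 311 ± 2.30 and the lactate dehydrogenase gene LDHB at 229 ± 2.57 (SD, n = 2 each). PKM at 165 ± 11.6, TPI1 at 163 ± 15.1 and PGAM1 at 160 ± 0.728 CPM per kb did not differ beyond their spread. SLC2A3 followed at 122 ± 24.2 CPM per kb. In GFI1-KO the first 2 places were the same, with ENO1 at 215 ± 20.5 CPM per kb. LDHB again had the next highest mean, at 163 ± 26.4 CPM per kb. It overlapped SLC2A3 at 150 ± 32.7 and PKM at 146 ± 32.7, so the order of these genes was not resolved. EGLN1 stood at place 30 in WT, at 3.75 ± 0.167 CPM per kb, and at place 20 in GFI1-KO, at 11.8 ± 5.24. That GFI1-KO place was not resolved. EGLN1 was at 15.5 CPM per kb in replicate 1, on 17 counts, and at 8.09 in replicate 2. ALDOC at 12.7 ± 7.64 and ALDOA at 11.1 ± 6.07 CPM per kb did not differ from it beyond their spread. These lengths join all annotated exons of a gene, so genes with long rare isoforms are understated.

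**Figure D4:**
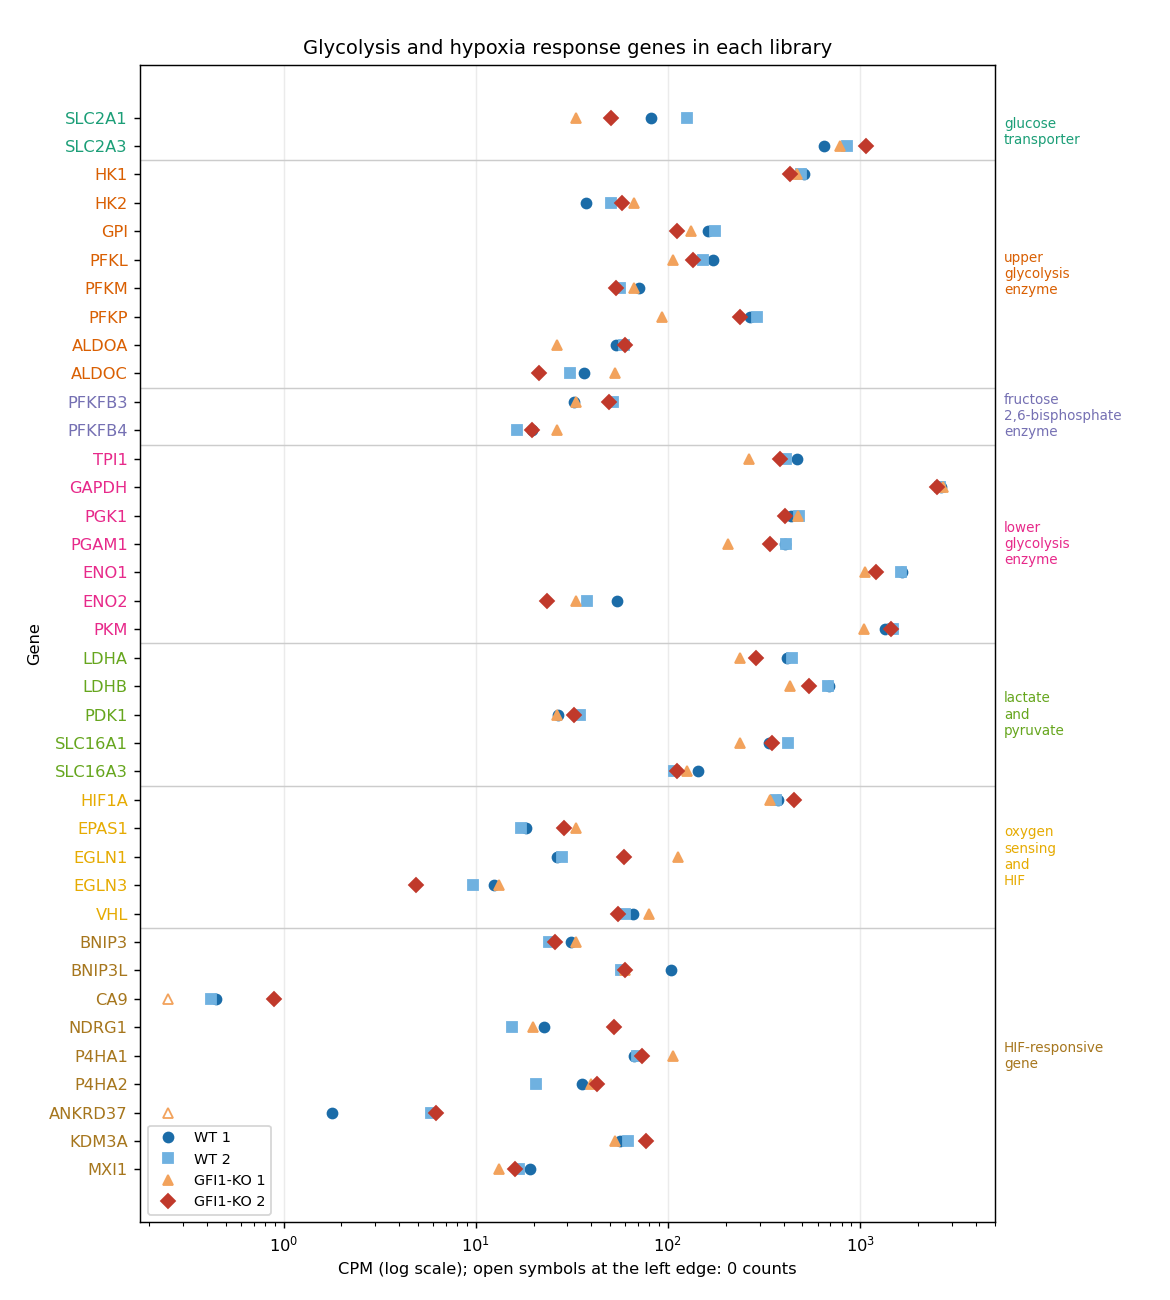
Level (CPM, log axis) of every member in each of the 4 libraries, grouped by role. GAPDH is level across the libraries, ENO1, LDHA and LDHB sit lower in both GFI1-KO libraries, and members near the bottom rest on few counts in GFI1-KO replicate 1.

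At the end of the path, both lactate dehydrogenase genes were lower in both GFI1-KO libraries. LDHA, whose subunit favours lactate formation and which HIF is known to induce (ENSG00000134333, chromosome 11, 18394388 to 18408425, plus strand, GRCh38), was at 416 and 444 CPM in WT, against 238 and 288 CPM in GFI1-KO, on 931, 1059, 36 and 647 counts. That is 430 ± 20.3 CPM against 263 ± 35.0 CPM (SD, n = 2 each), and the genotypes did not overlap. The log2 fold change was -0.67 (SE 0.22) and did not pass (edgeR adjusted p = 0.213). Pooled counts gave a GFI1-KO to WT ratio of 0.662 (exact 95% counting interval 0.606 to 0.722).

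LDHB, whose subunit favours pyruvate formation, was at 688 and 677 CPM in WT, against 431 and 542 CPM in GFI1-KO (log2 fold change -0.46, SE 0.21, edgeR adjusted p = 0.528). Its exons share 997 of 2983 bases with AC010197.2, so reads there could have been dropped. LDHA took 37.7% and 39.6% of the counts of the pair in WT, against 35.6% and 34.7% in GFI1-KO, and the interval of GFI1-KO replicate 1 covered both WT values.

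Of the lactate exporters, SLC16A1, which encodes MCT1, was at 337 and 422 CPM in WT, against 238 and 346 CPM in GFI1-KO (log2 fold change -0.30, SE 0.23, edgeR adjusted p = 0.815). SLC16A3, which encodes the hypoxia-inducible MCT4, was at 144 and 107 against 126 and 111 CPM (-0.13, SE 0.25, edgeR adjusted p = 0.965). PDK1, the kinase that keeps pyruvate out of the mitochondrial pyruvate dehydrogenase, was at 26.8 and 34.8 against 26.5 and 32.5 CPM. All 3 overlapped between genotypes.

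**Figure D5:**
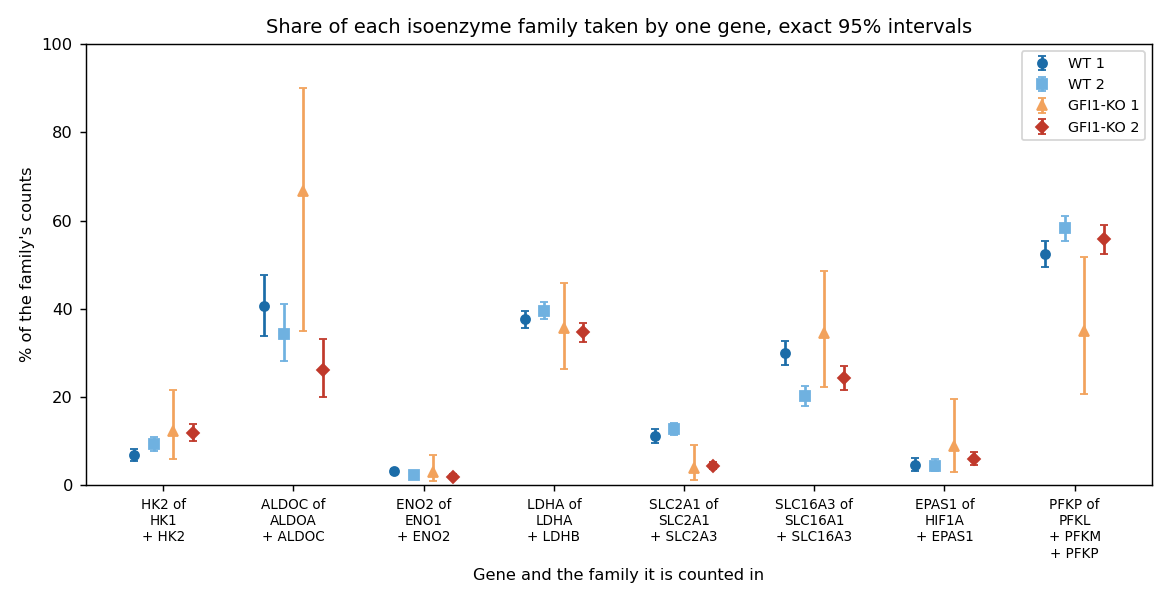
Share of the counts of a gene family (%, vertical axis) taken by 1 named member in each library, with exact 95% intervals. The SLC2A1 share is lower in both GFI1-KO libraries with intervals apart from WT, and the intervals of GFI1-KO replicate 1 are the widest in every family.

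The oxygen-sensing genes held the 1 member that passed the threshold. EGLN1 encodes PHD2, the main HIF prolyl hydroxylase and itself a known HIF target (ENSG00000135766, chromosome 1, 231363751 to 231425044, minus strand, GRCh38). It was at 26.3 and 28.1 CPM in WT, against 113 and 58.8 CPM in GFI1-KO, on 59, 67, 17 and 132 counts. Both GFI1-KO libraries lay above WT, and their exact 95% counting intervals, 65.6 to 180 CPM and 49.2 to 69.7 CPM, lay above those of WT, 20.1 to 34.0 CPM and 21.8 to 35.7 CPM.

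EGLN1 rose by a fitted 2.57-fold (log2 fold change 1.36, SE 0.32, edgeR adjusted p = 0.0493). The mean level was 85.7 ± 38.1 CPM in GFI1-KO, against 27.2 ± 1.25 CPM (SD, n = 2 each), a ratio of 3.15 that gives the shallow library equal weight. Pooled counts gave a GFI1-KO to WT ratio of 2.28 (exact 95% counting interval 1.79 to 2.91). The call stood at the edge of the threshold. It was lost with DESeq2 (adjusted p = 0.281), with the newer edgeR dispersion (0.096) and with 3 other scalings (0.0537 with RLE size factors, 0.0821 with upper quartiles and 0.0788 with library size alone). It was also lost with a minimum mean of 5 CPM (0.0776), with the 20 most abundant genes removed (0.0503), and when WT replicate 1 (0.197) or WT replicate 2 (0.0932) was left out of the edgeR fit. Against 1 GFI1-KO library alone the log2 fold change was 1.11 without replicate 1 (adjusted p = 0.0102) and 2.05 without replicate 2 (0.00137), so its size depended on which library was used.

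The other sensing genes did not pass. HIF1A, whose protein rather than its RNA is the usual point of control, was at 372 and 364 CPM in WT, against 338 and 455 CPM in GFI1-KO (log2 fold change 0.16, SE 0.22, edgeR adjusted p = 0.936). EPAS1, which encodes HIF-2 alpha and is known from endothelium, was at 18.3 and 17.2 CPM in WT, against 33.1 and 28.9 CPM in GFI1-KO, on 41, 41, 5 and 65 counts. Its genotypes did not overlap (0.74, SE 0.36, edgeR adjusted p = 0.559). Per kilobase HIF1A made up 93.5 to 96.8% of the 2 alpha subunit transcripts in every library.

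VHL, the ubiquitin ligase subunit that recognises hydroxylated HIF, was at 66.1 and 60.0 against 79.5 and 54.7 CPM. EGLN3, the hydroxylase PHD3, was at 12.5 and 9.65 against 13.2 and 4.90 CPM, with 2 counts in GFI1-KO replicate 1. Both overlapped between genotypes.

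The 9 HIF-responsive genes lay on both sides of 0. Of the 8 tested, 3 lay below 0, with a median log2 fold change of 0.26, 0 were called by edgeR or limma-voom, or by DESeq2 among the 6 with an adjusted p, and 1 had an unadjusted p under 0.05. That was NDRG1, a stress-responsive gene, at 22.8 and 15.5 CPM in WT, against 19.9 and 52.5 CPM in GFI1-KO, on 51, 37, 3 and 118 counts. The log2 fold change was 1.27 (SE 0.36, edgeR adjusted p = 0.128) and rested on GFI1-KO replicate 2: it was 0.07 without that library and 1.46 (adjusted p = 0.000534) without GFI1-KO replicate 1.

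The collagen prolyl hydroxylase subunits P4HA1 and P4HA2 were higher in both GFI1-KO libraries. P4HA1 was at 66.5 and 69.2 against 106 and 73.0 CPM (edgeR adjusted p = 0.897). P4HA2 was at 35.7 and 20.6 against 39.7 and 42.7 CPM (edgeR adjusted p = 0.683). Neither passed, and the values of GFI1-KO replicate 1 rest on 16 and 6 counts.

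MXI1, an antagonist of MYC, was at 19.2 and 16.8 CPM in WT, against 13.2 and 16.0 CPM in GFI1-KO, the first on 2 counts (log2 fold change -0.20, SE 0.40, edgeR adjusted p = 0.965). The mitophagy receptors BNIP3 (31.3 and 23.9 against 33.1 and 25.8 CPM) and BNIP3L (103 and 56.7 against 59.6 and 59.6 CPM) overlapped between genotypes. So did the histone demethylase KDM3A, at 56.3 and 61.7 against 53.0 and 77.0 CPM. ANKRD37 stood at 1.79 and 5.87 against 0 and 6.23 CPM, where the 0 lies in GFI1-KO replicate 1, whose floor of 3 counts is 19.9 CPM.

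Further genes of the same pathways gave no call. Of 118 listed genes, 89 were tested, and edgeR and limma-voom each called 0. DESeq2 called 0 of the 66 to which it gave an adjusted p. The medians of the 6 lists lay between -0.22 and 0.12 on the log2 scale. At an unadjusted edgeR p under 0.05, 4 genes were higher and 2 lower, where 5.81% of all genes were higher and 3.54% lower.

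Among other transporters and kinases, 8 of 17 were tested, with a median of 0.06, and SLC2A13, a myo-inositol transporter, had the smallest adjusted p (log2 fold change 0.79, edgeR adjusted p = 0.435). PFKFB2 followed at -0.67 (adjusted p = 0.726). Of the other isoenzymes of lower glycolysis, 4 of 13 were tested, with a median of -0.22. The muscle enolase ENO3 was at -0.36 (adjusted p = 0.763) and shares 111 exon bases with the abundant PFN1. GAPDHS was at -1.06 (adjusted p = 0.822).

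Of the pyruvate genes, 15 of 17 were tested, with a median of -0.17. PDP1, the phosphatase that activates pyruvate dehydrogenase, was at 1.17 (SE 0.38, edgeR adjusted p = 0.209), and DLAT, the acetyltransferase subunit of that complex, at -0.56 (adjusted p = 0.553). All 19 genes of the pentose phosphate, glycogen and sugar side branches were tested, with a median of -0.03. Glycogen synthase GYS1 was at -0.57 (adjusted p = 0.575) and the serine synthesis enzyme PHGDH at 0.51 (adjusted p = 0.579).

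All 17 HIF pathway regulators were tested, with a median of 0.12. CITED2, which competes with HIF for its coactivators, was at -0.64 (edgeR adjusted p = 0.468) and the deubiquitinase USP20 at -0.73 (adjusted p = 0.534). Of 35 further known HIF targets 26 were tested, with a median of 0.04. The glycogen phosphatase subunit PPP1R3B was at -1.46 (adjusted p = 0.19) and the chemokine receptor CXCR4 at 1.23 (adjusted p = 0.398).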

How the data were processed

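The authors deposited raw read counts per gene, whole numbers with 1 column per library. DESeq 1.18.1, HTSeq 0.6.0, SAMtools 1.3.1 and HISAT2 2.0.4 are named, without roles, per the submitters' processing notes, with the builds hg38 and GRCh38. The labels' protocols give Trizol extraction and TruSeq libraries. For annotation, filters and strand setting the entry is "not given in the sources used here". Overlapping genes may have lost or shared reads. Identifiers were matched to GENCODE 29 (GRCh38), 19902 of 19912.

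Counts were tested with edgeR 4.0.16 in R 4.3.3: filterByExpr (minimum count 10, total 15), TMM, glmQLFit and glmQLFTest with genotype as the term, and Benjamini-Hochberg adjustment over 11380 genes, threshold 0.05. Fold changes use a prior count of 0.125, and the SE divides the unshrunken change by the square root of F. CPM divides by TMM-scaled totals of tested genes. Intervals are exact (95%) and, without molecular identifiers, cover counting error only.

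Replicate numbers did not pair the libraries, since nothing in the labels ties them. Members and lists were chosen with earlier results of these data known. Members were named with values when called, when the genotypes did not overlap at a mean of at least 5 CPM, when among the 10 smallest adjusted p, or when in an isoenzyme family, and others briefly. In each further list the 2 smallest adjusted p were named. Alternatives were DESeq2 1.42.0, limma-voom 3.58.1, the newer edgeR dispersion, leaving out each library, a replicate block, and other scalings and filters. The scripts were tested on simulated data.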

Additional observations from a re-analysis of the deposited data

How the results depend on the processing

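Against 109 genes, 1 member (EGLN1) and 0 further pathway genes called, DESeq2 called 33 genes and 0 members, edgeR's newer dispersion form called 58 and 0, scaling by upper quartiles 58 and 0, library size alone 72 and 0, and a minimum mean of 5 CPM 50 and 0. RLE size factors and removal of the 20 most abundant genes each called 0 members. In all 7 settings the direction of EGLN1 was kept. Without the low-count filter 305 genes, 3 members (EGLN1, NDRG1, SLC2A1) and 2 further pathway genes (AK4, PPP1R3B) were called. Leaving out 1 library gave 62 to 373 genes, 0 to 3 members and 0 to 2 further genes. The highest counts of genes and members came without GFI1-KO replicate 1, the lowest without WT replicate 1, and without either WT library 0 members were called. The median of the members stayed between -0.17 and -0.09.

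A replicate block called 327 genes, 4 members (EGLN1, LDHA, NDRG1, SLC2A1) and 1 further gene (CXCR4). The deviations of WT replicate 1 and GFI1-KO replicate 1 from their genotype means correlated at 0.116 over 11380 genes. With 2 libraries per genotype, the deviations of replicate 2 are the same with opposite sign and add nothing. Same-numbered libraries share only a number. With the mitochondrial genes and the 20 most abundant genes left out of the total, which also drops GAPDH, the enzyme share ratio of 0.857 became 0.783.

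Of the 37 tested members 16 turned sign under at least 1 setting, and none of them was called. With 1 library left out the log2 fold changes ranged from -0.0492 to 0.0519 for GAPDH, -0.18 to 0.0673 for PGK1, -0.42 to 0.0360 for PKM, -0.31 to 0.0687 for PFKM, -1.08 to 0.0909 for ALDOA, -0.66 to 0.66 for ALDOC, -0.34 to 0.49 for PFKFB3, -0.21 to 0.23 for PDK1, -0.30 to 0.12 for SLC16A3, -0.11 to 0.31 for HIF1A, -1.17 to 0.27 for EGLN3, -0.20 to 0.34 for VHL, -0.19 to 0.27 for BNIP3, -0.78 to 0.0785 for BNIP3L, -0.15 to 0.38 for KDM3A and -5.65 to 1.52 for ANKRD37, whose lowest value is a fit against 0 counts and no bound. DESeq2 gave 0.00135 for GAPDH, -0.0078 for PDK1 and 0.0207 for BNIP3. GAPDH was at 0.00153 with RLE size factors and 0.00198 with library size alone. The replicate block gave -0.0461 for PFKFB3, -0.0827 for PDK1 and 0.10 for BNIP3. The cause was not tested. The depth of GFI1-KO replicate 1 limits every member under about 20 CPM. Members well above that also rest on few counts there, such as ALDOC at 53.0 CPM on 8 counts and PFKP at 92.7 CPM on 14.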

Other observations

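AK4, the mitochondrial adenylate kinase that HIF is known to induce, was listed at 0 counts in both WT libraries and at 3 and 8 counts in GFI1-KO. It was below the low-count filter and is named here after its values were seen. In the deep GFI1-KO library its 8 counts stood at 3.56 CPM. Vascular endothelial growth factor VEGFA, another known HIF target and also named after its values were seen, was at 24.1 and 17.6 CPM in WT and 26.5 and 9.79 CPM in GFI1-KO, the first of these on 4 counts, and the genotypes overlapped.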
